A study of Mus musculus with 12 samples.

Results

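Keratins were examined in 12 subcutaneous allograft tumors of mTc11 cells, a mouse lung cancer line. The set comprised 10 genes chosen by name, 6 keratins of simple epithelium (*Krt7*, *Krt8*, *Krt18*, *Krt19*, *Krt20* and *Krt23*) and 4 keratins of basal cells and stratified epithelium (*Krt5*, *Krt14*, *Krt15* and *Krt17*). Of these, 9 were among the 15687 genes analysed, and *Krt15* was not analysed here. The CTL group (6 tumors) grew from clones with a scrambled shRNA, and the *Filip1l*-knockdown group (6 tumors) from clones with an shRNA against *Filip1l*. In both groups 1000000 cells were injected into male C57BL6/J mice at 8 weeks of age, and tumors were collected on day 24. According to the paper's methods the cells were a mixture of puromycin-selected clones, and which of the shRNA sequences was used in the sequenced tumors was not given in the sources used here. Each library came from a whole tumor, in which the cancer cells grow among the cells of an immunocompetent host.

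Keratins are the intermediate filament proteins of epithelial cells. A filament is built from heterodimers of an acidic type I keratin (here *Krt14*, *Krt17*, *Krt18*, *Krt19*, *Krt20* and *Krt23*) and a basic type II keratin (*Krt5*, *Krt7* and *Krt8*), and the pair in use depends on the epithelium. *Krt8* and *Krt18* are the primary pair of simple epithelia, including the alveolar lining of the lung, where *Krt7* and *Krt19* are added. *Krt20* is typical of intestinal and gastric surface epithelium and of urothelium, whereas *Krt5* and *Krt14* mark basal cells of the airway and epidermis and *Krt17* is induced in wounded or activated keratinocytes.

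Mouse keratin genes lie in a type I cluster on chromosome 11 and a type II cluster on chromosome 15, and *Krt18* is the type I gene that lies beside the type II cluster. Of the 9 members analysed, 5 were on chromosome 11 and 4 on chromosome 15. *Krt8* (chr15:101996698-102004482, minus strand) and *Krt18* (chr15:102028180-102032027, plus strand) were transcribed away from each other with 23697 bases between them in the GENCODE annotation of GRCm38. The promoter windows of this neighbouring pair, and that of *Krt20* from the other cluster, are shown because *Krt8* and *Krt20* passed both thresholds described below and *Krt18* did not. The window of *Krt7*, which also passed both thresholds, is not shown. Each window runs 5′ to 3′ on the strand of its gene, from 250 bases before to 50 bases after the RefSeq start on GRCm38.p6, and capitals mark matches to TATAAA on either strand.
Krt8 (chr15:102004293-102004592, minus strand): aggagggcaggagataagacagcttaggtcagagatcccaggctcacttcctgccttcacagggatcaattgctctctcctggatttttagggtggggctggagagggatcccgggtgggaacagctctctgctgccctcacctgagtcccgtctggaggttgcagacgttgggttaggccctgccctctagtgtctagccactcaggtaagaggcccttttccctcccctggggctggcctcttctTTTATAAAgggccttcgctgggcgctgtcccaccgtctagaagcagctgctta
Krt18 (chr15:102027966-102028265, plus strand): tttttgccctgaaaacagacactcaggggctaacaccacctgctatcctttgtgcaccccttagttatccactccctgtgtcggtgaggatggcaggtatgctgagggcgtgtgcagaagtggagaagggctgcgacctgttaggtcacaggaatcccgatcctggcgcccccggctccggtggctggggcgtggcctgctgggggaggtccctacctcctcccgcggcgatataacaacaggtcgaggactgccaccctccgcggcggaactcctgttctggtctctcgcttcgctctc
Krt20 (chr11:99438104-99438403, minus strand): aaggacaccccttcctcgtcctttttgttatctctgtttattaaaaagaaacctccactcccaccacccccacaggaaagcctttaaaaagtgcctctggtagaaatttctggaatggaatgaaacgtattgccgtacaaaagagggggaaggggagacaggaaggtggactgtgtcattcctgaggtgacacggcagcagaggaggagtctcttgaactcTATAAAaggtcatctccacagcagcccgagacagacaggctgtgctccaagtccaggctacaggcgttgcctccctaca
The letters TATAAA began at position -29 from the start in *Krt20*. In *Krt8* the capitals hold 2 overlapping matches, 1 on each strand, the first of them at position -3, and the *Krt18* window held none. Of the 7 members with a RefSeq promoter window (*Krt7*, *Krt8*, *Krt18*, *Krt20*, *Krt23*, *Krt5* and *Krt14*), *Krt8* and *Krt20* held TATAAA, compared with 13.6% of 32851 mouse promoter windows of the same length. *Krt7* passed both thresholds and held no match, and whether these letters bear on the changes was not tested. No member held the AP-1 letters TGANTCA, which were present in 7.81% of all windows.

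Values are normalized counts, that is, reads per gene divided by the size factor of each tumor. Reads on listed genes numbered between 17834745 and 29502069 in CTL tumors and between 25460564 and 32419578 in *Filip1l*-knockdown tumors, so counting error was small for every member. A gene was called when limma gave an adjusted p under 0.05 (Benjamini-Hochberg over 15687 genes) and an absolute log2 fold change over 1, where positive values are higher in *Filip1l*-knockdown tumors. By this rule 10.2% of all genes were called, 6.2% as higher and 3.97% as lower, while 41.9% passed the adjusted p alone. In 21.5% of all genes the values of both groups did not overlap. The counts of members and lists below are to be read beside these shares. *Filip1l*, the targeted gene, had 2311 ± 211 normalized counts in CTL and 1924 ± 165 in *Filip1l*-knockdown tumors (SD of 6 tumors per group), a log2 fold change of -0.26 (SE 0.07, limma adjusted p = 0.00998) with overlapping ranges. *Filip1l*-knockdown replicate 1 stood apart from its group in several of the gene lists below, and values without it are given where they bear on a keratin. In whole tumors, fewer cells of a type and less RNA per cell cannot be told apart.

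Keratins of simple epithelium were higher in *Filip1l*-knockdown tumors, and the basal keratins were not called in either direction. Of the 6 simple keratins, 4 (*Krt19*, *Krt20*, *Krt8* and *Krt7*) rose, each 2.08-fold or more by the ratio of group means, and 2 were not called. Their median log2 fold change was 1.05, beside 0.008 over all genes. Of the 3 basal keratins analysed, 0 were called by limma, edgeR or DESeq2 and 0 reached an unadjusted p under 0.05 in limma, with a median log2 fold change of 0.07.

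Among the type II keratins, *Krt8* (ENSMUSG00000049382) had the highest level per kilobase of transcript in *Filip1l*-knockdown tumors. In CTL tumors it ranged from 47665 to 65496 normalized counts with a median of 57061, and in *Filip1l*-knockdown tumors from 71618 to 146922 with a median of 131378. Every *Filip1l*-knockdown tumor was above every CTL tumor, and the lowest of them, replicate 1, lay well below the other 5, which began at 102784. The mean was 56576 ± 6449 in CTL and 121129 ± 29221 in *Filip1l*-knockdown tumors (SD of 6 tumors per group), a log2 fold change of 1.06 (SE 0.16, limma adjusted p = 0.000114), and 1.21 without replicate 1. The processed pseudogene *Krt8-ps* shares sequence with *Krt8*, and 17.1% of the 100-base windows of the *Krt8* transcript occur in another gene. It had 76.4 ± 15 and 151 ± 29.7 normalized counts, so the reads assigned to it were few beside those of *Krt8*.

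*Krt7* (ENSMUSG00000023039, chr15:101411043-101430313, plus strand), a type II keratin of ductal, alveolar and other glandular epithelia, moved by a similar factor. Its lowest, median and highest values were 14102, 18370 and 21788 normalized counts in CTL tumors and 26771, 39763 and 47185 in *Filip1l*-knockdown tumors. The groups did not overlap. The means were 18444 ± 2602 and 38338 ± 7015 (SD of 6 tumors per group), and the log2 fold change was 1.05 (SE 0.13, limma adjusted p = 2.26e-05). This value lay close to the fold threshold: it fell to 0.97 without CTL replicate 1 and to 0.98 without *Filip1l*-knockdown replicate 5, and in both cases only the fold threshold was missed.

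**Figure D1:**
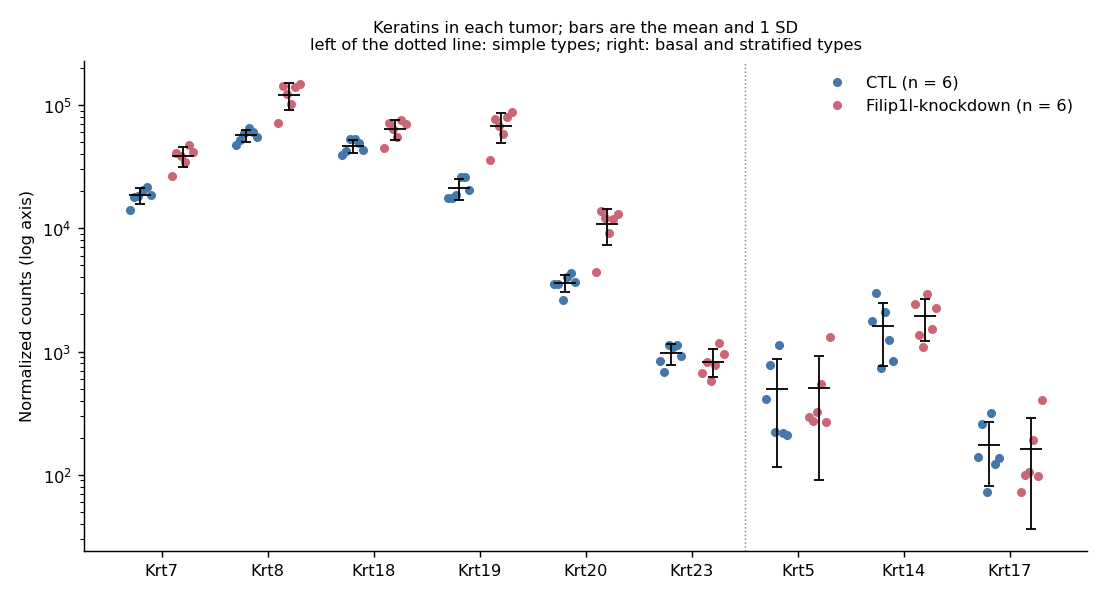
Normalized counts (log axis) of the 9 keratins analysed in each of the 12 tumors, with 6 CTL tumors in blue and 6 *Filip1l*-knockdown tumors in red and black bars for the mean and 1 SD. The red points of Krt7, Krt8, Krt19 and Krt20 all lie above the blue points, those of Krt18 overlap them partly, and those of Krt23, Krt5, Krt14 and Krt17 spread over the same range.

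Among the type I keratins, *Krt19* (ENSMUSG00000020911, chr11:100140810-100148665, minus strand) rose most. This short keratin lacks the tail domain of other keratins and is found in ductal and progenitor epithelia. It had 17535 to 25945 normalized counts in CTL tumors (median 19529) and 36104 to 87638 in *Filip1l*-knockdown tumors (median 72257). No values overlapped, and the lowest *Filip1l*-knockdown tumor was again replicate 1. The mean went from 21016 ± 3906 to 67689 ± 18702 (SD of 6 tumors per group), a 3.22-fold ratio and a log2 fold change of 1.65 (SE 0.19, limma adjusted p = 1.15e-05).

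*Krt20* (ENSMUSG00000035775, chr11:99428403-99438150, minus strand), the keratin of gut and urothelial surface cells, showed the next largest change among the members. CTL tumors ranged from 2608 to 4360 normalized counts with a median of 3609, and *Filip1l*-knockdown tumors from 4430 to 13782 with a median of 11968. The separation of the groups rested on a narrow margin, since *Filip1l*-knockdown replicate 1 (4430) lay just above the highest CTL tumor (4360) while the other 5 started at 9132. The means were 3623 ± 590 and 10727 ± 3471 (SD of 6 tumors per group), and the log2 fold change was 1.49 (SE 0.23, limma adjusted p = 0.000152), or 1.73 without replicate 1. Exact two-sided permutation of the labels gave p = 0.00216 for *Krt7*, *Krt8*, *Krt19* and *Krt20* alike, the smallest value that 924 arrangements allow.

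*Krt18* (ENSMUSG00000023043), the type I partner of *Krt8*, differed less. It ranged from 39436 to 52931 normalized counts in CTL tumors (median 46198) and from 45151 to 75221 in *Filip1l*-knockdown tumors (median 67430). Replicate 1 of the *Filip1l*-knockdown group fell inside the CTL range, and the other 5 tumors were above it. The means were 46595 ± 5730 and 63557 ± 11355 (SD of 6 tumors per group), a 1.36-fold ratio, and the log2 fold change of 0.44 (SE 0.13, 95% interval 0.17 to 0.70) passed the adjusted p (limma, 0.0122) but not the fold threshold. Its exact permutation p was 0.0152.

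*Krt23* (ENSMUSG00000006777, chr11:99477974-99493137, minus strand), a type I keratin reported in gastrointestinal and other glandular epithelia, was the simple keratin whose estimate pointed downward. CTL tumors held 687 to 1137 normalized counts (median 1003) and *Filip1l*-knockdown tumors 576 to 1174 (median 795). These ranges overlapped almost completely. The log2 fold change was -0.24 (SE 0.17, 95% interval -0.59 to 0.12, limma adjusted p = 0.282), and the interval does not include a change as large as that of *Krt18*, *Krt7* or any other simple member in the upward direction.

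The basal keratins were detected in every tumor at lower levels, and they varied more among tumors of the same group than the simple keratins did. *Krt14* (ENSMUSG00000045545, chr11:100203162-100207548, minus strand), the type I keratin of basal cells, had 740 to 3003 normalized counts in CTL tumors (median 1506) and 1083 to 2945 in *Filip1l*-knockdown tumors (median 1894). Neither group was shifted clear of the other. The means were 1615 ± 858 and 1937 ± 724 (SD of 6 tumors per group), and the log2 fold change was 0.35 (SE 0.33, 95% interval -0.37 to 1.06, limma adjusted p = 0.437).

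*Krt5* (ENSMUSG00000061527, chr15:101707070-101712898, minus strand), the type II partner of *Krt14*, ranged from 209 to 1121 normalized counts in CTL tumors (median 318) and from 266 to 1316 in *Filip1l*-knockdown tumors (median 307). The highest values of the groups came from CTL replicate 4 and *Filip1l*-knockdown replicate 6. The means were 493 ± 377 and 503 ± 412 (SD of 6 tumors per group), and the log2 fold change was 0.07 (SE 0.48, 95% interval -0.95 to 1.10, limma adjusted p = 0.921), and -0.26 without *Filip1l*-knockdown replicate 6. *Krt17* (ENSMUSG00000035557, chr11:100256217-100261029, minus strand), the type I keratin of activated keratinocytes, had 71.9 to 320 normalized counts in CTL tumors (median 138) and 72.6 to 404 in *Filip1l*-knockdown tumors (median 102). Its log2 fold change was -0.21 (SE 0.42, 95% interval -1.10 to 0.69, limma adjusted p = 0.730). The intervals of all 3 basal keratins reach a log2 fold change of 0.69 or more upward, and those of *Krt14* and *Krt5* include a 2-fold rise, so a change of that size in these genes was not excluded by the spread between tumors.

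The spread of the basal keratins was shared among tumors. Relative to the mean of the 12 tumors on the log2 scale, *Krt5* was higher by 0.94 in CTL replicate 2, by 1.48 in CTL replicate 4 and by 1.71 in *Filip1l*-knockdown replicate 6. In the same 3 tumors *Krt17* was higher by 0.83, 1.15 and 1.48. The wound-associated keratin *Krt16* was higher by 0.94, 1.37 and 1.63 in them, and *Krt6a* by 0.83, 1.20 and 1.39. *Krt14* followed this order less closely, with its highest deviations in CTL replicate 2 (0.89) and *Filip1l*-knockdown replicate 4 (0.87). In CTL replicates 3, 5 and 6 and in *Filip1l*-knockdown replicates 2, 3 and 5 all 5 of these keratins were below their means.

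**Figure D2:**
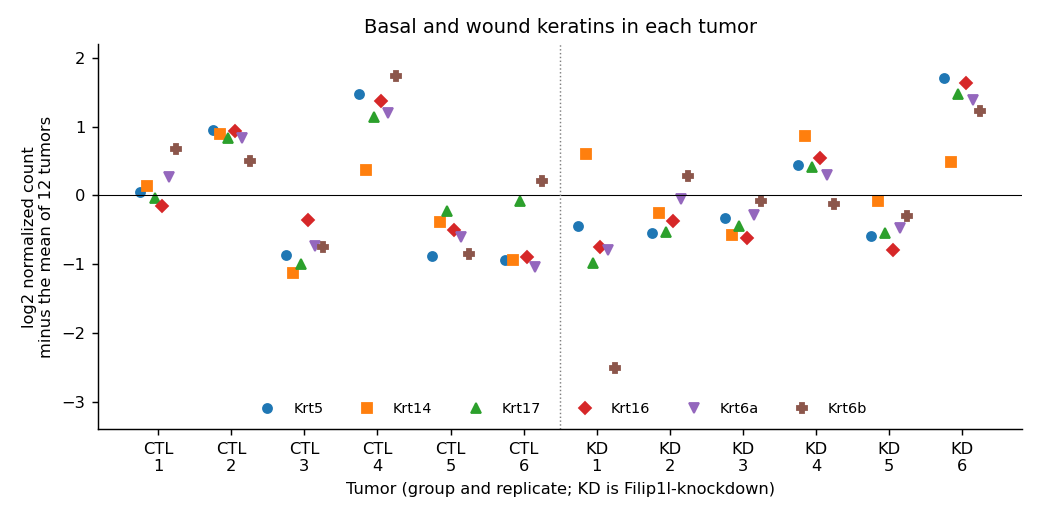
Deviation of each basal or wound keratin from its mean over the 12 tumors (log2 of the normalized count plus 1) in each CTL and *Filip1l*-knockdown (KD) tumor, with 1 symbol a gene. CTL replicates 2 and 4 and KD replicate 6 lie above zero for all 6 genes, and no consistent offset separates the groups.

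Because type I and type II keratins assemble as partners, levels were compared per kilobase of the principal transcript. In CTL tumors *Krt18* led with 32425 ± 3987 normalized counts per kilobase, followed by *Krt8* (28895 ± 3293), *Krt19* (13335 ± 2479), *Krt7* (4505 ± 636) and *Krt20* (1880 ± 306), all SD over 6 tumors. The ranges of *Krt18* and *Krt8* overlapped, while *Krt19* and *Krt7* overlapped no neighbour and *Krt20* overlapped *Krt14* below it. *Krt14* came next with 951 ± 506, then *Krt23* with 616 ± 118, *Krt5* with 225 ± 172 and *Krt17* with 113 ± 60.4, and each of these overlapped at least 1 neighbour in the order. In *Filip1l*-knockdown tumors the order at the top was *Krt8* (61864 ± 14924), *Krt18* (44229 ± 7902) and *Krt19* (42950 ± 11866). Their ranges overlapped, so that *Krt19* was no longer separated from *Krt18*. *Krt7* (9364 ± 1714) and *Krt20* (5567 ± 1801) kept their places in the order but now overlapped, from 6539 to 11525 and from 2299 to 7152 per kilobase.

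The ratio of *Krt8* to *Krt18* per kilobase was nearly constant among CTL tumors, at 0.825 to 0.921 (mean 0.893 ± 0.035, SD, n = 6), and was 1.16 to 1.53 in *Filip1l*-knockdown tumors (mean 1.38 ± 0.126). It was above every CTL value in each of the 6 *Filip1l*-knockdown tumors, replicate 1 included. The ratio of *Krt19* to *Krt18* went from 0.323 to 0.482 in CTL tumors to 0.729 to 1.14 in *Filip1l*-knockdown tumors, again without overlap. These ratios describe members whose changes are given above and were not tested further.

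When all members were summed per kilobase, the ratio of type II to type I transcripts changed much less than the ratios of single pairs. It was 0.663 to 0.703 in CTL and 0.739 to 0.776 in *Filip1l*-knockdown tumors, with means of 0.682 ± 0.016 and 0.754 ± 0.014 (SD of 6 tumors per group) and no overlap. Within the type I members, *Krt18* made up 65.8% ± 3.15 of the transcripts per kilobase in CTL and 47.4% ± 3.45 in *Filip1l*-knockdown tumors, while *Krt19* made up 26.9% ± 2.57 and 44.9% ± 3.22. The mix of type I partners was therefore different. The balance of the types differed by a smaller factor, 1.11 by the ratio of group means, though also without overlap.

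Other ratios did not separate the groups. *Krt7* per *Krt8* was 0.156 ± 0.012 in CTL and 0.154 ± 0.016 in *Filip1l*-knockdown tumors. *Krt20* per *Krt19* was 0.143 ± 0.021 and 0.128 ± 0.018, and *Krt5* per *Krt14* was 0.226 ± 0.098 and 0.201 ± 0.130 (all SD, n = 6). The basal members took 0.676% to 3.02% of the transcripts of all members per kilobase in CTL tumors, against 0.510% to 1.60% in *Filip1l*-knockdown tumors. These ranges overlapped although the sum of the simple members per kilobase was 81657 ± 9820 in CTL and 164502 ± 37873 in *Filip1l*-knockdown tumors. All members together accounted for 0.563% ± 0.058 of the normalized counts of listed genes in CTL and for 1.11% ± 0.219 in *Filip1l*-knockdown tumors.

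**Figure D3:**
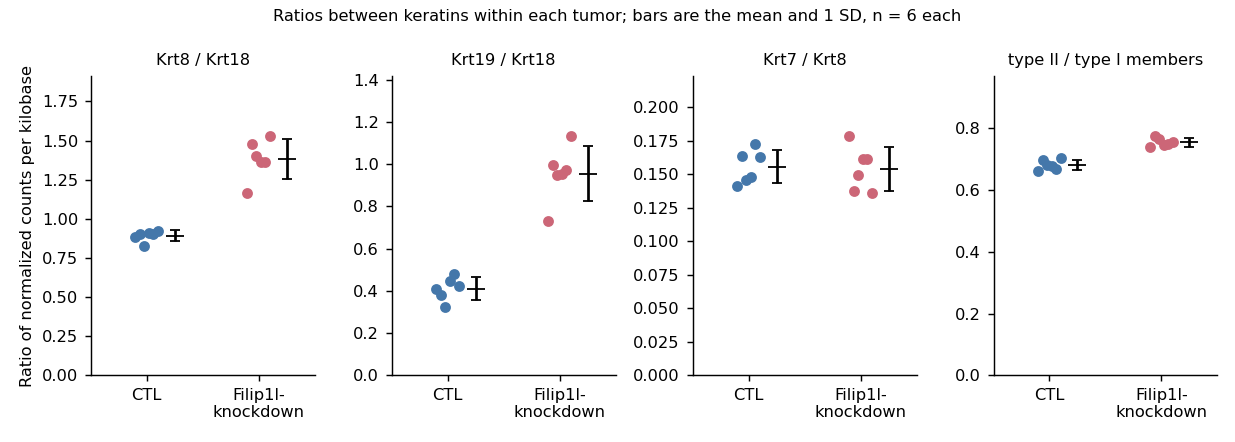
Ratios of normalized counts per kilobase within each tumor, with CTL in blue and *Filip1l*-knockdown in red, and black bars for the mean and 1 SD (n = 6 each). Krt8 to Krt18 (CTL up to 0.921, *Filip1l*-knockdown from 1.16) and Krt19 to Krt18 separate the groups, Krt7 to Krt8 does not, and the ratio of type II to type I members separates them by a small step.

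Partner keratins were also compared tumor by tumor within each group, as correlations of log2 values over 6 tumors, with 12 relations in all. *Krt8* and *Krt18* had r = 0.947 in CTL tumors (exact permutation p = 0.0111, adjusted 0.0667, Spearman's rho 0.829, exact p = 0.0583) and r = 0.982 in *Filip1l*-knockdown tumors (exact permutation p = 0.0167, adjusted 0.0667, rho 0.771, exact p = 0.103). Without the 2 tumors farthest from the median of *Krt8*, r was 0.913 and 0.749. *Krt7* and *Krt19* had r = 0.806 in CTL tumors (exact permutation p = 0.0222, adjusted 0.0667, rho 0.886, exact p = 0.0333) and 0.959 in *Filip1l*-knockdown tumors (exact permutation p = 0.0111, adjusted 0.0667, rho 0.943, exact p = 0.0167), and r was 0.999 and 0.970 without 2 tumors. None of the 12 relations passed an adjusted p of 0.05.

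The basal pair *Krt5* and *Krt14* had r = 0.868 in CTL tumors (exact permutation p = 0.0444, adjusted 0.0889, rho 0.771, exact p = 0.103) and 0.503 in *Filip1l*-knockdown tumors (exact permutation p = 0.314, adjusted 0.419, rho 0.371, exact p = 0.497). Without 2 tumors these were 0.837 and -0.235, so the latter rested on *Filip1l*-knockdown replicates 4 and 6. *Krt14* and *Krt17* had r = 0.845 in CTL (exact permutation p = 0.0361, adjusted 0.0867, rho 0.886, exact p = 0.0333) and 0.408 in *Filip1l*-knockdown tumors (exact permutation p = 0.439, adjusted 0.512, rho 0.0857, exact p = 0.919), and 0.672 and 0.299 without 2 tumors. Whether the correlations differ between the groups was not tested. *Krt14* and *Krt10* had r = -0.608 in CTL (exact permutation p = 0.236, adjusted 0.354, rho -0.543, exact p = 0.297) and 0.779 in *Filip1l*-knockdown tumors (exact permutation p = 0.0583, adjusted 0.1, rho 0.943, exact p = 0.0167, adjusted 0.1), and -0.36 and 0.878 without 2 tumors. *Krt20* and *Krt23* had r = -0.0241 in CTL (exact permutation p = 0.922, adjusted 0.922, rho 0.0857, exact p = 0.919) and 0.361 in *Filip1l*-knockdown tumors (exact permutation p = 0.469, adjusted 0.512, rho 0.314, exact p = 0.564), and 0.864 and -0.113 without 2 tumors.

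The genes whose pattern was most like a member were sought by the correlation of deviations from the group means over the 12 tumors, among genes that averaged 50 normalized counts or more. For *Krt18* they were *Mrpl14* (r = 0.979), *Cox19* (0.977), *Wbp2* (0.977), *Anxa4* (0.975) and *Mea1* (0.975), and *Krt8* itself had 0.959. For *Krt20* they were *Zfp706* (0.964), *Mlph* (0.963), *Bnip3l* (0.961), *Frk* (0.958) and *Pparg* (0.949), and among the keratins *Krt19* came closest with 0.901. For *Krt14* they were *Mapk6* (0.929), *Cdsn* (0.911), *Kif14* (0.894), *Wdr36* (0.880) and *Inip* (0.878), with *Krt5* at 0.726. *Krt14* had r = -0.439 with *Krt18* and -0.346 with *Krt8*. All points share the libraries and size factors of the 12 tumors, and these values are descriptions.

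Outside the members, 8 further keratins were listed. Of the 7 keratins of suprabasal, cornifying and wounded epithelium analysed, 0 were called by limma, edgeR or DESeq2. In limma 2 had an adjusted and an unadjusted p under 0.05, beside 41.9% of all genes for the adjusted p. *Krt80*, a type II keratin of many epithelia that appears with differentiation, was at 187 to 275 normalized counts in CTL and 390 to 502 in *Filip1l*-knockdown tumors without overlap. Its log2 fold change of 0.98 (SE 0.10, limma adjusted p = 4.37e-06) lay just under the fold threshold, and passed it without CTL replicate 2 (1.03), CTL replicate 4 (1.00) or *Filip1l*-knockdown replicate 1 (1.01) and after removal of chromosome medians (1.03). *Krt10*, the type I keratin of suprabasal epidermis, had 115 ± 26.9 normalized counts in CTL and 80.8 ± 13.5 in *Filip1l*-knockdown tumors, a log2 fold change of -0.49 (SE 0.18, limma adjusted p = 0.0393) that reached an adjusted p of up to 0.0904 when 1 tumor was left out.

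The wound keratins *Krt6a* and *Krt16* did not separate the groups. *Krt6a* had 325 ± 204 and 320 ± 209 normalized counts, for a log2 fold change of 0.03 (limma adjusted p = 0.968) that turned to -0.015 when tumors were scaled to the same total and stayed at 0.015 when scaled to the same 75th percentile, and *Krt16* had 140 ± 93.5 and 135 ± 113, with -0.12 (limma adjusted p = 0.860). *Krt6a*, *Krt6b* and *Krt16* share 42.1%, 30.6% and 24.3% of their 100-base windows with other genes, so reads could be divided or lost among them. *Krt87*, a hair keratin gene, was the only listed keratin outside the members to be called, at 7 to 10.5 normalized counts in CTL and 19.8 to 32.3 in *Filip1l*-knockdown tumors (log2 fold change 1.38, SE 0.23, limma adjusted p = 0.000229), and with a pseudocount of 8 its value was 0.95.

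**Figure D4:**
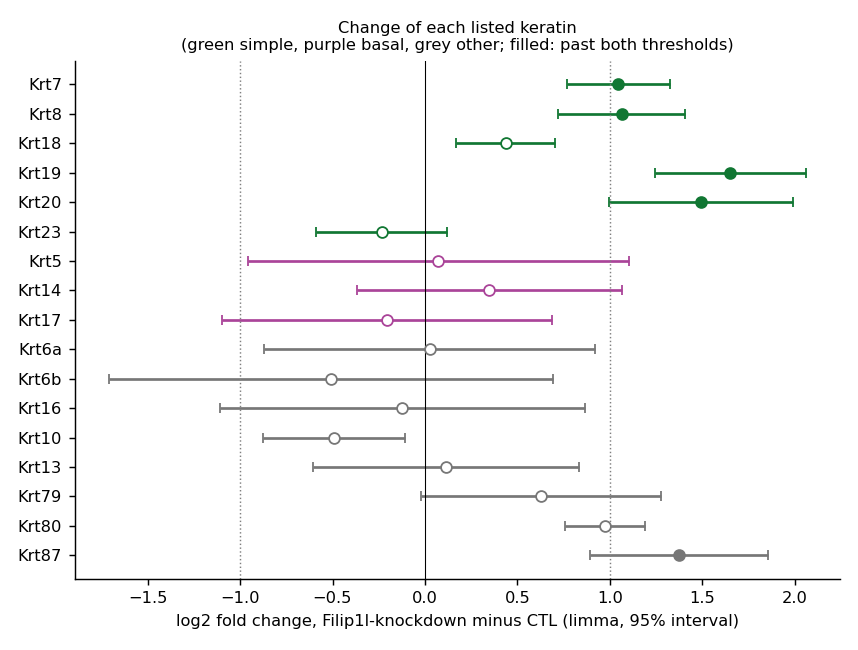
Log2 fold change of each listed keratin (*Filip1l*-knockdown minus CTL, limma, 95% interval), with simple members in green, basal members in purple and other keratins in grey. Filled points passed both thresholds, which are Krt7, Krt8, Krt19, Krt20 and Krt87, and the intervals of the basal and wound keratins all include 0.

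Keratins from neighbouring genes did not move as a block. Of the simple members that rose, *Krt7* and *Krt8* lie on chromosome 15, as do *Krt5* and *Krt6a*, and *Krt19* and *Krt20* lie on chromosome 11, as do *Krt23*, *Krt14* and *Krt17*. The median log2 fold change was 0.04 over genes of chromosome 11 and -0.04 over genes of chromosome 15. Larger medians were found on chromosomes 14 (0.39), 19 (-0.35) and 8 (-0.19), which hold no member. So the groups differed over whole chromosomes, and the origin of these shifts was not tested. Without strand, reads from a gene on the opposite strand cannot be told apart, and exons of such genes covered 1.1% of the exon length of *Krt7*, 5.2% of *Krt8*, 5.9% of *Krt5*, 6.9% of *Krt10* and 19.5% of *Krt6a*. Of the 100-base windows of *Krt14* and *Krt5*, 2.9% and 3.8% occur in another gene, and of those of *Krt7*, *Krt17*, *Krt18*, *Krt19*, *Krt20* and *Krt23*, 0%.

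Among other intermediate filaments, *Vim*, the filament protein of mesenchymal cells, was abundant in both groups, with 103676 ± 13960 normalized counts in CTL and 89493 ± 7237 in *Filip1l*-knockdown tumors (log2 fold change -0.21, limma adjusted p = 0.108). Of 11 such genes, 2 rose and 1 fell. *Des*, the filament of muscle cells, rose from 723 ± 304 to 3682 ± 2715 normalized counts (log2 fold change 2.04, limma adjusted p = 0.00358) and *Prph*, a neuronal filament, by 1.56 on the log2 scale (adjusted p = 0.0176). The neurofilament gene *Nefh* fell by 1.01 on the log2 scale (limma adjusted p = 0.0247), and did not stay past the thresholds in 5 of 12 fits with a tumor removed (CTL replicates 3 and 4, *Filip1l*-knockdown replicates 1, 2 and 6), with values down to -0.86.

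Keratin filaments attach to desmosomes and hemidesmosomes. Of 15 linker and desmosome plaque genes analysed, 0 were called by limma, edgeR or DESeq2, with a median log2 fold change of -0.11. In limma 9 passed the adjusted p, beside 41.9% of all genes, and 10 passed an unadjusted p of 0.05. *Dsp*, which anchors keratins to the desmosome, had 8009 ± 725 and 11556 ± 1596 normalized counts (log2 fold change 0.52, limma adjusted p = 0.000547). The plakins of the cornified envelope had the opposite sign, with *Ppl* at 4518 ± 345 and 3069 ± 333 (-0.56, limma adjusted p = 3.67e-05) and *Evpl* at 1183 ± 120 and 732 ± 146 (-0.71, limma adjusted p = 0.000270), neither of them overlapping between groups. *Dsp*, *Ppl* and *Evpl* are named for their roles and were chosen after their values were seen.

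Of 4 desmosomal cadherins analysed, *Dsg2*, the desmoglein of simple epithelium, was the only gene called, and rose from 2420 ± 392 to 7621 ± 1062 normalized counts (log2 fold change 1.66, SE 0.11, limma adjusted p = 1.4e-07). *Dsg3* of basal keratinocytes had 38.0 ± 19.0 and 44.5 ± 17.8 (0.28, limma adjusted p = 0.507), and *Dsc2* was called as lower without CTL replicate 3. Of 7 genes of the hemidesmosome and its laminin, 2 rose (1 without CTL replicate 3, and 3 without CTL replicate 5 or *Filip1l*-knockdown replicate 1). Among them *Lama3*, a laminin chain of the epithelial basement membrane, went from 1288 ± 558 to 5058 ± 1243 (log2 fold change 2.05, limma adjusted p = 2.34e-05).

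Of 15 epithelial transcription factors analysed, 4 rose and 1 fell, with a median log2 fold change of 0.48. *Cdx2*, an intestinal homeobox factor, rose from 259 ± 48.0 to 1155 ± 218 normalized counts (log2 fold change 2.15, limma adjusted p = 1.24e-07). *Ovol2*, a repressor of mesenchymal genes, was at 5.34 ± 5.75 and 20.9 ± 6.45 (2.10, limma adjusted p = 0.00229), and *Sox2*, a factor of airway basal and other progenitor cells, fell from 406 ± 161 to 35.6 ± 19.7 (-3.50, limma adjusted p = 7.4e-06). *Trp63*, the master regulator of basal and stratified epithelium, was low in both groups, with 22.4 ± 8.31 and 27.7 ± 12.8 normalized counts (0.28, limma adjusted p = 0.533).

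Marker lists of the cell types that a subcutaneous lung cancer allograft could hold were set beside the keratins. Of 15 general epithelial markers, 5 rose and 1 fell (median log2 fold change 0.70). The tight junction gene *Cldn3* rose from 247 ± 94.3 to 3196 ± 738 normalized counts (3.76, limma adjusted p = 9.55e-08), *Cldn7* by 2.31 on the log2 scale, the protease inhibitor gene *Spint1* by 1.63 and *Epcam*, an epithelial adhesion molecule, by 1.51, from 5448 ± 1227 to 15465 ± 3290. *Cdh1*, the epithelial cadherin, had 28492 ± 2707 and 28678 ± 2877 (log2 fold change 0.01, limma adjusted p = 0.950), and is named although its value was seen first. The summed level of the list was 43697 to 56639 in CTL and 62278 to 94233 in *Filip1l*-knockdown tumors, with the lowest of the latter again in replicate 1.

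Of 14 non-keratin genes of gut and gastric surface epithelium, 9 rose and 1 fell, with a median log2 fold change of 2.18. The estimates of 11 of the 14 were above 0. The gene that fell, named although its value was seen first, was *Tff2*. It went from 2887 ± 1480 to 416 ± 291 normalized counts (-2.72, limma adjusted p = 0.000358). *Muc13*, a transmembrane mucin, rose from 83.4 ± 55.1 to 3390 ± 1147 normalized counts (5.53, limma adjusted p = 2.08e-07), *Gkn2* by 3.57 on the log2 scale and *Phgr1* by 3.05. The call of *Gkn1* (3.06, limma adjusted p = 0.0472) did not stay past the threshold in 9 of 12 fits with a tumor removed, at an adjusted p of up to 0.104. The summed level was 13933 to 22804 in CTL and 47085 to 102697 in *Filip1l*-knockdown tumors. *Krt20*, whose tissue this list describes, thus moved in the same direction as most of its genes.

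Markers of cells that carry basal keratins gave mixed results. Of 12 non-keratin genes of epidermis and hair follicle, 2 rose (*Tchh* by 1.67 and *Sprr1a* by 1.29 on the log2 scale) and 1 fell (*Lor*, from 86.7 ± 19.2 to 24.4 ± 15.1 normalized counts), with a median of 0.23. Their summed level was 1275 to 2103 in CTL and 1795 to 4911 in *Filip1l*-knockdown tumors, most of it from *Sprr1a*. The highest of these sums were in CTL replicate 5 and *Filip1l*-knockdown replicate 2. Of 6 airway basal cell genes, 2 fell and no other was called (*Sox2* and *Snai2*, the latter from 275 ± 25.2 to 115 ± 24.0), with a median of -0.37, and 3 fell without CTL replicate 3 or *Filip1l*-knockdown replicate 6. *Trp63*, *Sox2* and *Itga6* also belong to lists above, and *Pdpn* to the fibroblast list. Without *Sprr1a*, the summed level of the other 11 epidermal genes was 448 to 746 in CTL and 457 to 922 in *Filip1l*-knockdown tumors. *Sprr1a* was left out as the most abundant gene of the list, a choice made after the values were seen. In this reduced list the highest value of each group was in the tumor with its highest *Krt5*, which was not so in the full list. Below these the order differed, with CTL replicate 1 (674) above CTL replicate 2 (630) here and below it in *Krt5* (415 and 776). The tumors with the highest values were CTL replicate 4 (746) and *Filip1l*-knockdown replicate 6 (922).

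Several low-level genes of basal and stratified cells, named after their values were seen, were also highest in these 2 tumors. *Trp63* was at 32.9 normalized counts in CTL replicate 4 and 49.8 in *Filip1l*-knockdown replicate 6, the hemidesmosome collagen gene *Col17a1* at 159 and 158, and *Dsg3* at 70.8 and 79.5. The cornified envelope gene *Sprr1b* was at 97.7 and 79.5 and the water channel gene *Aqp3* at 96.7 and 61.1, and for all 5 genes these were the highest values of their groups. These 5 genes thus peaked with *Krt5*, *Krt17*, *Krt16* and *Krt6a* in these 2 tumors, and several other genes of the same lists did not. In *Filip1l*-knockdown replicate 6, *Lor* (12.2 normalized counts) and *Sox2* (15.7) had the lowest values of their group. *Itga6* was highest in CTL replicate 5 and *Filip1l*-knockdown replicate 2, and *Tgm1* in CTL replicate 3 and *Filip1l*-knockdown replicate 1. The part of basal and epidermal cells in the levels of the basal and wound keratins was not tested.

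Markers of lung, mesothelium and non-epithelial cells also differed between tumors. Of 9 lung alveolar and club cell genes 2 rose and 1 fell, the ciliated cell factor *Foxj1* (by 1.85 on the log2 scale), while the calls of *Scgb3a1* and *Sftpb* rested on 25.1 ± 13.0 and 304 ± 345 normalized counts in *Filip1l*-knockdown tumors. The number that rose was 1 to 4 with a tumor removed, and 4 without *Filip1l*-knockdown replicate 4. The call of *Sftpb* did not stay past the threshold in 9 of 12 such fits, at an adjusted p of up to 0.106. Of 4 mesothelial genes 1 rose, *Upk1b*, which was at 7.66 ± 5.08 and 22.6 ± 10.3 normalized counts.

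Of 10 skeletal muscle genes 9 rose (median log2 fold change 2.02, and 6 rose without CTL replicate 2, 3 or 5 or without *Filip1l*-knockdown replicate 1, 3 or 4), with summed levels of 2365 to 12522 in CTL and 5617 to 92621 in *Filip1l*-knockdown tumors. *Myh2* rose by 3.16, *Mb* by 2.56, *Myh1* by 2.46 and *Acta1* by 2.15 on the log2 scale. Muscle levels and simple keratins did not rank the tumors alike: *Filip1l*-knockdown replicate 6 had the highest summed level of simple keratins (360914) and the lowest muscle sum of its group (5617). Of 8 leukocyte genes 2 rose, *S100a9* (1.87) and *S100a8* (1.58).

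Of 10 fibroblast genes 0 were called by limma, edgeR or DESeq2. In limma 3 had an adjusted and an unadjusted p under 0.05, beside 41.9% of all genes for the adjusted p, with a median of -0.47. This rested on *Filip1l*-knockdown replicate 1, without which 8 of the 10 had an adjusted p under 0.05, the median was -0.65 and 2 collagen and matrix genes fell past both thresholds, *Col1a2* (-1.19, limma adjusted p = 9.7e-05) and *Lum* (-1.04, limma adjusted p = 0.00118). Of these, *Col1a2* had -0.97 (limma adjusted p = 0.00626) with all tumors. The share of all genes with an adjusted p under 0.05 in the fit without replicate 1 is not given here. The summed level of the list was 162190 to 265282 in CTL and 76273 to 255974 in *Filip1l*-knockdown tumors. The other 5 *Filip1l*-knockdown tumors, up to 160375, lay below every CTL tumor. Replicate 1 had the highest fibroblast sum (255974) and the highest leukocyte sum (11090) of its group, together with the lowest *Krt7*, *Krt8*, *Krt18*, *Krt19* and *Krt20*. The part of these cell types in the keratin levels was not tested. Without this tumor the log2 fold changes were 1.15 for *Krt7*, 1.21 for *Krt8*, 0.53 for *Krt18*, 1.82 for *Krt19* and 1.73 for *Krt20*, and -0.18 for *Krt23*.

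**Figure D5:**
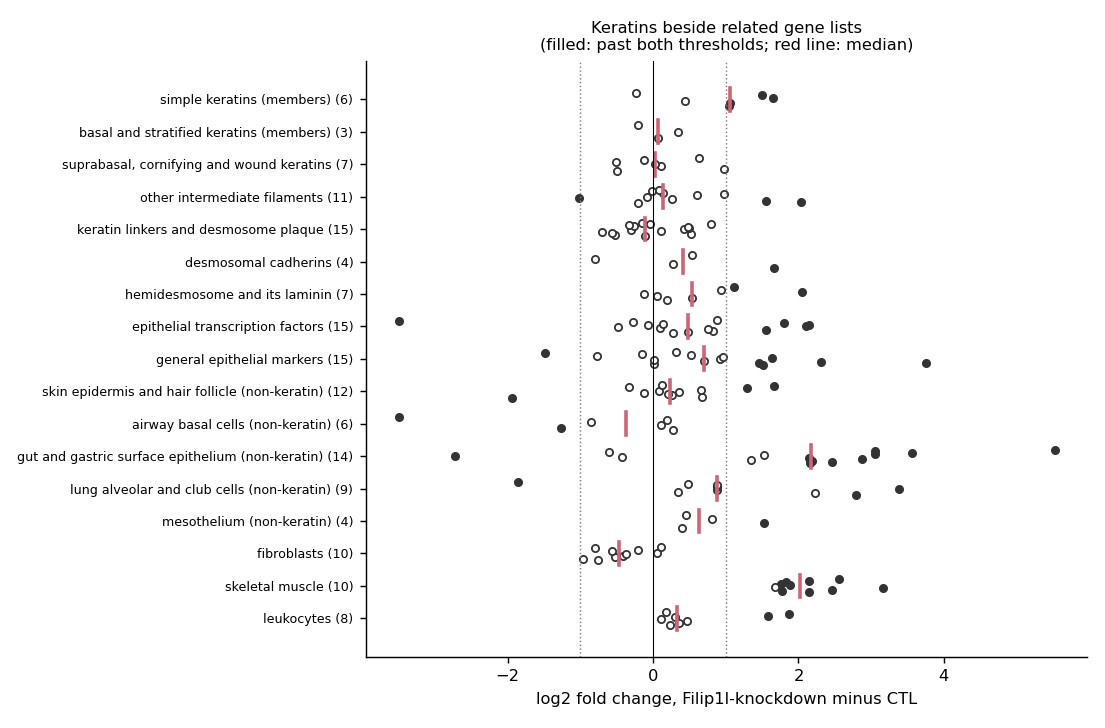
Log2 fold change (*Filip1l*-knockdown minus CTL) of every gene analysed in each list, with the number of genes in brackets, filled points for genes past both thresholds and a red line at the median. The simple keratins have a median of 1.05 and the basal keratins one of 0.07, beside 2.18 for gut and gastric genes, 0.70 for general epithelial genes and -0.47 for fibroblast genes.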

How the data were processed

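Total RNA from 12 tumors (6 CTL, 6 *Filip1l*-knockdown) was sequenced as paired reads of 150 bases. According to the methods and the submitters' processing notes, the authors trimmed reads with Trimmomatic 0.36, aligned them with STAR 2.5.2b (mm10), counted unique hits with featureCounts of Subread 1.5.2 and divided counts by DESeq2 size factors. The deposited values are this normalized signal, with no correction for gene length. Multi-mapping reads were thus dropped, which can lower genes with close copies. The library kit was not stated to mark strand.

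Values were log2-transformed with 1 added as pseudocount, and no gene (0) had a mean under the minimum of 5. Groups were compared over 15687 genes with limma 3.58.1 (mean-variance trend, Benjamini-Hochberg) in R 4.3.3, at an adjusted p of 0.05 and a log2 fold change of 1, the thresholds of the study. Single genes were also tested over the 924 arrangements of labels. The labels call the tumors biological replicates and name no batch. Whether the tumors of a group grew from 1 transduced cell population or more was not given. The p-values therefore measure the spread between tumors, and not that between separately made knockdown cells. The members and gene lists were chosen with earlier results of these data known. Named are all members, up to 4 called genes a list with the largest change, other keratins with a mean of at least 50, and the 5 genes most like *Krt18*, *Krt20* and *Krt14*, with exceptions marked. A few results for single genes are not reported here. Annotation was GENCODE vM21 on GRCm38 (99.8% of identifiers matched), and lengths are of the principal transcript.

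In each tumor 100% of values were whole multiples of 1 read (tolerance 0.02), worth 0.865 to 1.49 normalized counts. After seeing the data, edgeR 4.0.16 and DESeq2 1.42.0 were run on these recovered reads as alternatives. Steps were tested on simulated data.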

Additional observations from a re-analysis of the deposited data

Results flagged for a closer look

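Among 14 keratins in both groups, 28 sets of 6 tumors were examined for a tumor far from the others (gap over range above the 95% critical value of Dixon's test), and 4 were found, all of them the highest value in *Filip1l*-knockdown replicate 6. They were *Krt5* at 1316 normalized counts (gap over range 0.735), *Krt17* at 403.6 (0.64), *Krt16* at 352.0 (0.653) and *Krt6a* at 726.7 (0.68). Chance gives about 1 such set in 20 for normally distributed values, and these gaps were taken on normalized counts, not on log2 values. That rate need not hold here. On the log2 scale *Krt5* deviated from its mean by 1.71 in replicate 6, by 0.435 in replicate 4 (the next highest) and by -0.593 in replicate 5 (the lowest). For all 4 genes the gap was a smaller part of the range on that scale. These 4 genes varied together over the tumors, so they do not count as separate observations.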

How the results depend on the processing

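The 4 members called stayed 4 in each of the 11 alternatives that kept all tumors, and were 3 to 4 when 1 tumor was left out. Basal members called stayed at 0 in all of them. Over all genes the count was 1352 to 1652 in these alternatives (edgeR 1015 higher and 620 lower, DESeq2 1040 and 612) and 1513 to 1712 with 1 tumor left out. Rescaling moved the median log2 fold change of all genes by at most -0.041. Same-numbered tumors had correlations from -0.269 to 0.0990 and share only a number. With the replicate block 4 members were called, and 1554 genes in all.

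The estimate of *Krt6a* turned to -0.015 when tumors were scaled to the same total, to -0.032 in edgeR and to -0.021 in DESeq2. With 1 tumor left out, the signs of some keratins near 0 turned. *Krt5* ranged from -0.261 to 0.376, *Krt17* from -0.523 to 0.002, *Krt13* from -0.004 to 0.381, *Krt16* from -0.46 to 0.139 and *Krt6a* from -0.249 to 0.269. Depth did not limit the members, and the spread between tumors did for the basal keratins.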
